A study of Mus musculus with 12 samples.

Results

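Entry of a cell into division from G1 is set by the D cyclins, the kinases they switch on and the inhibitors that hold those kinases back, and the transcripts described here are those of 10 such genes out of the 20457 in the table. They were taken by gene name: the D cyclins Ccnd1, Ccnd2 and Ccnd3, the kinases Cdk4 and Cdk6, the CIP/KIP inhibitors Cdkn1a, Cdkn1b and Cdkn1c, and the INK4 inhibitors Cdkn2c and Cdkn2d. The cells were hematopoietic stem cells from the bone marrow of C57BL/6 mice, with no genetic change or treatment named in the labels. Young mice were 2 months old and old mice 28 months old. At each age the cells were sorted into a fraction without the surface receptor IL27RA (IL27RA-) and a fraction with it (IL27RA+), which gave 4 groups of 3 libraries, each made from 50 cells by Smart-Seq2, a full-length cDNA method. Which gates marked a cell as a stem cell is not stated in the labels. The labels name no separate animals behind the 3 libraries of each group, so the spread that the p-values rest on may be technical only.

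Growth signals raise the D cyclins, which bind and activate CDK4 and CDK6. The active kinases phosphorylate the retinoblastoma family of pocket proteins and so release E2F factors, which switch on the genes for DNA replication. INK4 proteins such as p18 (from Cdkn2c) and p19 (from Cdkn2d) bind CDK4 and CDK6 themselves and keep the cyclins off. CIP/KIP proteins, p21 (from Cdkn1a), p27 (from Cdkn1b) and p57 (from Cdkn1c), bind cyclin-CDK complexes and mainly block CDK2. In blood stem cells, p57 is known for keeping the cells at rest, and a low CDK6 level is known for delaying their first division.

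Libraries held 11.7 to 24.2 M reads in genes, and the young IL27RA- group was the deepest (21.7 ± 2.54 M, SD, n = 3). Levels are given as normalized counts, the reads of a gene divided by the size factor of its library, and 1 read is worth 0.644 to 1.256 of them depending on the library. The stem cell markers Kit, Procr and Hlf were present in all 12 libraries, Hlf at 5427 or more. Of 5 markers of multipotent progenitors, Cd48 reached at most 8.2 and Mpo was found only in young IL27RA+ libraries (27.3 to 101.1), while Cd34 (1922 to 5486), Cd27 (3334 to 7579) and Flt3 (21.2 to 903.4) were present in all 12. The mRNA of Il27ra itself did not separate the sorted fractions, with group means of 1231 (young IL27RA-), 1088 (young IL27RA+), 1379 (old IL27RA-) and 1294 (old IL27RA+). Old IL27RA- replicate 1 stood apart: its level of Igkc, an antibody light chain, was 312300 normalized counts and that of Jchain 60227, against at most 248.4 and 20.1 in the other 11 libraries, and 1 of its labels calls it young although its title and age say old. The averaged calls of the 10 genes are also given without that library. So are the age differences within IL27RA- cells that are printed with a test for Ccnd1, Cdkn1a, Cdkn1c and Cdkn2c. So is the sort difference of Cdk6 in old cells. Calls of genes outside the 10 are not. In samples of 50 cells, fewer cells with a transcript and less of it per cell cannot be told apart.

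All 10 genes passed the filter on low values. A gene was called when limma gave it a Benjamini-Hochberg adjusted p under 0.05 over all 14803 genes tested. With the ages averaged, 1 of the 10 differed between the sorted fractions, Cdk6, in a comparison that called 0.189% of all genes. With the fractions averaged, 2 of the 10 differed between old and young cells, Ccnd1 and Cdkn2c, where 1.85% of all genes were called. Within IL27RA+ cells the age comparison called 1 of the 10, Ccnd1, against 0.426% of all genes. It called 0 of the 10 within IL27RA- cells (0.669% of all genes), where 5 of the 10, and 12.5% of all genes, had an unadjusted p under 0.05. The comparison of the fractions called 0 of the 10 in young cells and 0 of the 10 in old cells, with 0.0203% of all genes called at each age, and 4 and 1 of the 10 were under 0.05 unadjusted, against 8.23% and 5.38% of all genes. The test of whether the sort difference changed with age called 0 of the 10 and 0% of all genes, with 2 of the 10 and 5.19% of all genes under 0.05 unadjusted. The median difference of the 10 genes was 0.35 on the log2(normalized count + 1) scale for age and 0.09 for the sort, against 0.06 and 0.05 over all genes tested, and 6 of the 10 were above 0 in each, against 54.1% and 54.2% of all genes.

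**Figure D1:**
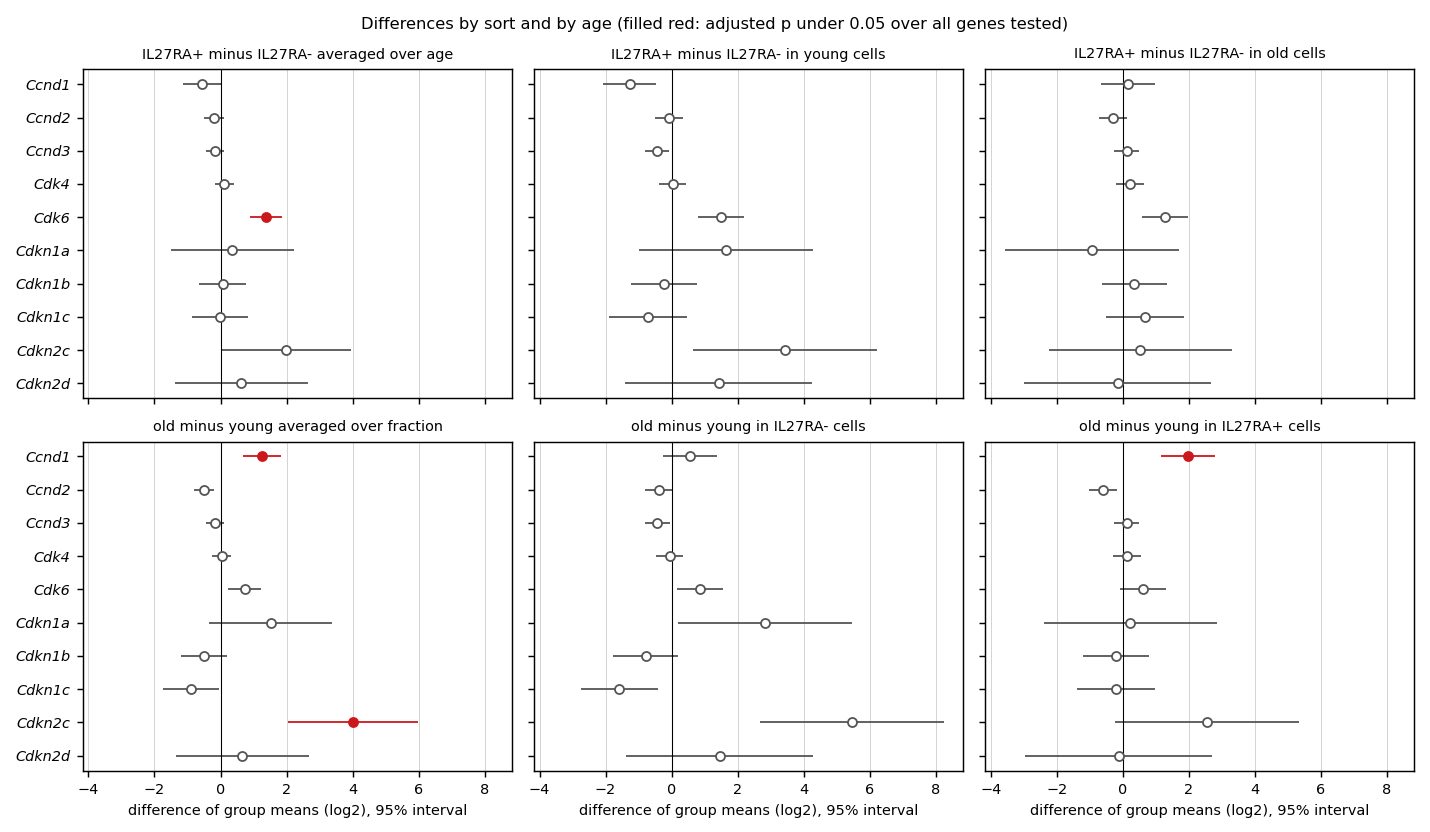
Difference of group means on the log2(normalized count + 1) scale for the 10 genes (rows), with the 95% interval of the limma fit, in the sort comparisons (top) and the age comparisons (bottom); each panel is 1 comparison. Filled red points passed the adjusted threshold: Cdk6 by sort (1.38) and Cdkn2c (4.00) and Ccnd1 (1.26) by age when averaged, and Ccnd1 in IL27RA+ cells (1.98).

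Ccnd1, which encodes cyclin D1, was higher in old than in young cells. In young IL27RA- libraries it stood at 1274, 1047 and 1388 normalized counts, and in young IL27RA+ libraries at 379.7, 357.9 and 971.9. Old IL27RA- libraries held 2677, 1732 and 1261, and old IL27RA+ libraries 2362, 1796 and 1904. All 3 young IL27RA+ libraries therefore lay below all other 9, and the old IL27RA- values reached down into the young IL27RA- range. How many of all genes set the young IL27RA+ group apart in this way was not counted. In IL27RA+ cells the old mean was 3.55 times the young mean, a log2 difference of 1.98 ± 0.38 (SE, n = 3 against 3, limma adjusted p = 0.0408), with no overlap of the groups, as was the case in the higher direction for 9.09% of all genes. In IL27RA- cells the ratio of means was 1.53 and the difference 0.55 ± 0.38 (limma adjusted p = 0.58), or 0.27 without old IL27RA- replicate 1 (limma adjusted p = 0.868). Averaged over the fractions the difference was 1.26 ± 0.27 (limma adjusted p = 0.0267, and 0.015 in the exact two-sided permutation of libraries within fractions, which can give no less than 0.005). In young cells the IL27RA+ mean was 0.46 times the IL27RA- mean (log2 difference -1.27 ± 0.38, limma adjusted p = 0.385), and in old cells 1.07 times. The change of the sort difference with age was 1.42 ± 0.54 and did not pass (unadjusted p = 0.0186, limma adjusted p = 0.915).

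The calls of Ccnd1 were close to the threshold. The averaged age call held in 4 of the 12 fits that each left out 1 library, and was lost (limma adjusted p 0.0526 to 0.0784, difference 1.12 to 1.30) without young IL27RA- replicate 2, young IL27RA+ replicates 1 or 2, old IL27RA- replicates 1 or 2, or any of the 3 old IL27RA+ libraries. Without old IL27RA- replicate 1, which had the highest Ccnd1, it was 1.12 (limma adjusted p = 0.0626). The call within IL27RA+ cells held in 5 of 12 such fits and was lost (limma adjusted p 0.0523 to 0.207, difference 1.72 to 2.06) without young IL27RA- replicate 1, young IL27RA+ replicates 1 or 2, old IL27RA- replicate 2, or any of the 3 old IL27RA+ libraries. On the opposite strand, exons of Oraov1 overlap Ccnd1, and whether the counting used strand is not stated. Oraov1 itself had group means of 858.4 (young IL27RA-), 1037 (young IL27RA+), 967.6 (old IL27RA-) and 810.9 (old IL27RA+). The part of shared reads in the Ccnd1 differences was not tested.

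Ccnd2, the cyclin D2 gene, stood lower in old than in young cells without passing the threshold. Its values were 8177, 5867 and 8423 normalized counts in young IL27RA- libraries, 7422, 6200 and 7425 in young IL27RA+, 6584, 5574 and 5000 in old IL27RA-, and 5132, 4610 and 4138 in old IL27RA+. The 3 old IL27RA+ libraries lay below all 6 young ones, a split whose share over all genes was not counted. The averaged age difference was -0.49 ± 0.14 (limma adjusted p = 0.101, exact permutation p = 0.01). It was -0.60 ± 0.20 in IL27RA+ cells, where the groups did not overlap (7.78% of all genes in the lower direction), and -0.38 ± 0.20 in IL27RA- cells, where they did. By sort the averaged difference was -0.19 ± 0.14 (limma adjusted p = 0.802).

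Ccnd3, which encodes cyclin D3, was highest in young IL27RA- cells. Those libraries held 6936, 6986 and 8141 normalized counts, young IL27RA+ libraries 5740, 4617 and 5900, old IL27RA- libraries 5180, 5302 and 5730, and old IL27RA+ libraries 5651, 5564 and 6429. Every young IL27RA- library lay above the other 9, whose ranges overlapped with each other. The share of all genes that set this group apart from the other 9 libraries was not counted. The young IL27RA+ minus IL27RA- difference was -0.44 ± 0.18 (limma adjusted p = 0.54) and the old minus young difference in IL27RA- cells -0.44 ± 0.18 (limma adjusted p = 0.324). In these 2 comparisons 4.73% and 6.71% of all genes had groups that did not overlap in that direction. Averaged over the other factor, both differences were -0.16 ± 0.13. Exons of Bysl overlap Ccnd3 on the opposite strand, and Bysl itself had group means of 282.5 to 672.6.

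**Figure D2:**
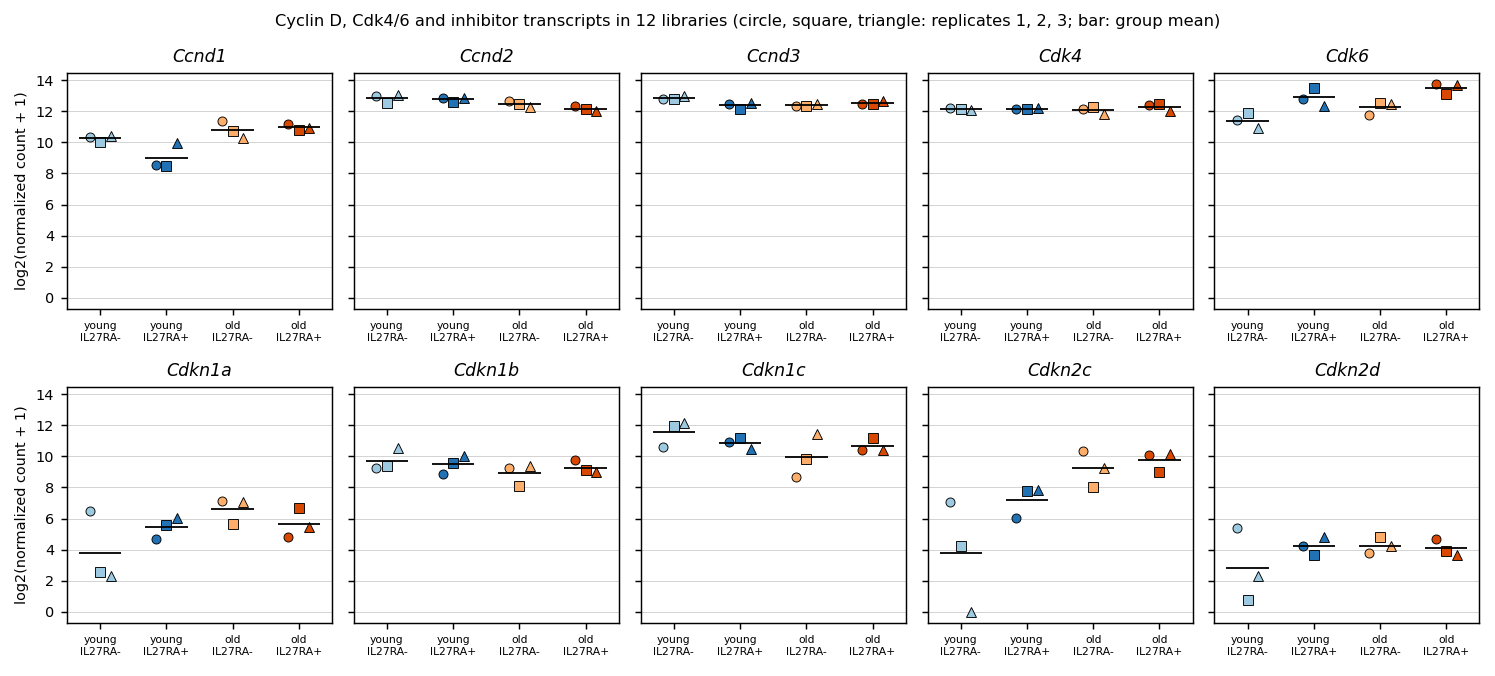
Level of each of the 10 genes in every library, as log2(normalized count + 1), by group; circles, squares and triangles are replicates 1, 2 and 3 and the bar is the group mean. Cdk4 is nearly level across the 12 libraries, Cdk6 is higher in IL27RA+ than in IL27RA- libraries at each age, and Cdkn2c is higher in every old library than in every young one.

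Cdk6, the kinase partner of the D cyclins that is prominent in blood cells, was higher in IL27RA+ than in IL27RA- cells at both ages. Young IL27RA- libraries held 2731, 3791 and 1921 normalized counts and young IL27RA+ libraries 7136, 11782 and 5238. Old IL27RA- libraries held 3464, 5985 and 5593 and old IL27RA+ libraries 13868, 8830 and 13153. The fractions did not overlap at either age (5.05% of all genes in young and 7.23% in old cells, in the higher direction). Across ages they did, since old IL27RA- replicates 2 and 3 lay above young IL27RA+ replicate 3. The means ran from 2814 ± 937.8 (SD, n = 3) in young IL27RA- through 5014 ± 1357 in old IL27RA- and 8052 ± 3367 in young IL27RA+ to 11950 ± 2726 in old IL27RA+ cells, and each group overlapped its neighbour in that order. IL27RA+ cells had 2.86 times the IL27RA- mean when young (log2 difference 1.49 ± 0.33, limma adjusted p = 0.223) and 2.38 times when old (1.27 ± 0.33, limma adjusted p = 0.265). Without old IL27RA- replicate 1 the difference in old cells was 1.02 (limma adjusted p = 0.811). Averaged over age the difference was 1.38 ± 0.23 (limma adjusted p = 0.0279), and the exact two-sided permutation within ages gave 0.005, the smallest p it can give. The sort difference was not shown to change with age (-0.22 ± 0.46, limma adjusted p = 0.972). Old minus young was 0.74 ± 0.23 averaged over the fractions, which did not pass (limma adjusted p = 0.133, exact permutation p = 0.025).

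The averaged sort call of Cdk6 held in 4 of the 12 fits that left out 1 library. It was lost (limma adjusted p 0.0508 to 0.126, difference 1.22 to 1.45) without young IL27RA- replicate 3, young IL27RA+ replicates 1 or 2, any of the 3 old IL27RA- libraries, or old IL27RA+ replicates 1 or 3. With the Igkc-rich library of old IL27RA- cells left out, replicate 1, the difference was 1.25 (limma adjusted p = 0.0785). The antisense gene Gm17590 overlaps an exon of Cdk6 and is not among the 20457 genes, so it has no level here.

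Cdk4, the other partner of the D cyclins, showed no such difference. Its values were 4650, 4596 and 4283 normalized counts in young IL27RA- libraries, 4467, 4527 and 4781 in young IL27RA+, 4537, 4862 and 3632 in old IL27RA-, and 5481, 5633 and 4090 in old IL27RA+. Every group overlapped every other, and the highest library was 1.6 times the lowest, the narrowest range of the 10 genes, where Cdk6 spanned 7.2 times. By sort Cdk4 differed by 0.12 (95% interval -0.17 to 0.42) and by age by 0.03 (-0.26 to 0.33), which turned to -0.04 when scaled to total reads, so a log2 change of the size seen for Cdk6 lies outside both intervals. Exons of Tspan31 overlap Cdk4 on the opposite strand. Tspan31 itself had group means of 1959 to 2354.

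The promoters of the kinases are shown because 1 of them differed between the fractions and the other did not, and that of Cdkn2c because it differed with age. The windows are the 250 bases before the start of the gene in the RefSeq promoter table for GRCm38.p6, matched by symbol, 5′ to 3′ on the strand of the gene. The table held 7 of the 10 genes. Ccnd1, Ccnd2 and Cdkn1c were not matched. Capitals mark matches on either strand to 4 motifs: the E-box CACGTG bound by MYC and its relatives, the GC box GGGCGG bound by SP factors (CCGCCC on the other strand), the E2F-like TTTNNCGC and the STAT-like TTCNNNGAA. No 2 matches overlap in the windows printed.
Cdk6, chr5:3343643-3343892, plus strand: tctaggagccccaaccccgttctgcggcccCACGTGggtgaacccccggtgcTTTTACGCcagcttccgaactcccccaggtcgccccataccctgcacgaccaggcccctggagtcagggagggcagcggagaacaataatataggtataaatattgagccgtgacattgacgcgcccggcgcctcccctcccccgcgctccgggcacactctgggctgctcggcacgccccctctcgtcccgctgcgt
Cdk4, chr10:127063285-127063534, plus strand: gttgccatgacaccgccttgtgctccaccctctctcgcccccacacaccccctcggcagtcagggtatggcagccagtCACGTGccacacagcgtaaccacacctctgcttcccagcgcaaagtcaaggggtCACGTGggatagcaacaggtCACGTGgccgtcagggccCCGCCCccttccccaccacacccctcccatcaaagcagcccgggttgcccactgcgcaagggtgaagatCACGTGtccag
Cdkn2c, first start, chr4:109666757-109667006, minus strand: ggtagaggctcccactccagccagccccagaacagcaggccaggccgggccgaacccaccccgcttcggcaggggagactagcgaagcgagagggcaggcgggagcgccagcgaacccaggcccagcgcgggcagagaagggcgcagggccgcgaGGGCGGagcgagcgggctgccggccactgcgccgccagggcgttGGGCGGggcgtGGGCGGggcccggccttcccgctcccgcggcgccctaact

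The Cdk6 window held 1 E-box and 1 E2F-like match, and the Cdk4 window 4 E-boxes and 1 GC box. The first start of Cdkn2c had 3 GC boxes in a window of 77.2% G and C, and its second start, at chr4:109665373-109665622, none of the 4 motifs in a window of 42.8% G and C. Among the 32536 different promoter windows of this length in the table, 6.04% held the E-box, 33.0% the GC box, 4.31% the E2F-like and 7.04% the STAT-like motif. The STAT-like letters were in none of the 10 windows of these genes, which says nothing about the factor. A match is a string of letters and not a measured binding site.

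Among the CIP/KIP inhibitors, Cdkn1c (p57) was the most abundant and Cdkn1a (p21) the least, and none of the 3 was called in any comparison. Cdkn1c stood at 1569, 3992 and 4443 normalized counts in young IL27RA- libraries, 1912, 2306 and 1446 in young IL27RA+, 409.2, 917.5 and 2731 in old IL27RA-, and 1332, 2317 and 1366 in old IL27RA+. The 2 highest libraries were young IL27RA- and the 2 lowest old IL27RA-, but those groups overlapped. In IL27RA- cells the old mean was 0.41 times the young mean (log2 difference -1.59 ± 0.55, unadjusted p = 0.0118, limma adjusted p = 0.245). Without old IL27RA- replicate 1, which had the lowest level of the 12 libraries, that difference was -0.94 (limma adjusted p = 0.567). In IL27RA+ cells the ratio was 0.89, and the averaged age difference was -0.89 ± 0.39 (limma adjusted p = 0.297). The antisense gene Gm44732 overlaps an exon of Cdkn1c.

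Cdkn1b, the p27 gene, ranged from 278.1 normalized counts in old IL27RA- replicate 2 to 1465 in young IL27RA- replicate 3. Its group means were 911.2 ± 480.2 (SD, n = 3) in young IL27RA-, 751.8 ± 277.3 in young IL27RA+, 520.6 ± 212.3 in old IL27RA- and 637.3 ± 195.2 in old IL27RA+ cells, and all 4 groups overlapped. By age it differed by -0.50 ± 0.33 (limma adjusted p = 0.513) and by sort by 0.06 ± 0.33. Cdkn1a, a target of p53, was low, with 6 to 141 reads per library. It stood at 87.6, 5.0 and 3.9 normalized counts in young IL27RA-, 24.4, 47.7 and 64.0 in young IL27RA+, 135.8, 48.8 and 131.9 in old IL27RA-, and 27.7, 103.5 and 42.2 in old IL27RA+ libraries. The 2 lowest values were young IL27RA- and the 2 highest old IL27RA-, while young IL27RA- replicate 1 lay above 8 others. Its age difference in IL27RA- cells was 2.82 ± 1.23 (unadjusted p = 0.0376, limma adjusted p = 0.365), or 2.57 without old IL27RA- replicate 1 (limma adjusted p = 0.583), and averaged over the fractions 1.52 ± 0.87 (limma adjusted p = 0.44).

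Cdkn2c, which encodes the INK4 inhibitor p18, was higher in old cells in both fractions. Young IL27RA- libraries held 132.9, 17.9 and 0 normalized counts, where 0 of 24.2 M reads allows a level of up to 1.93. Young IL27RA+ libraries held 63.9, 215.9 and 230.7. Old IL27RA- libraries held 1296, 266.7 and 616.6 and old IL27RA+ libraries 1102, 508.6 and 1155. Every old library therefore lay above every young one, although by little at the boundary (266.7 against 230.7). For how many of all genes this holds was not counted. The old mean was 14.4 times the young mean in IL27RA- cells and 5.42 times in IL27RA+ cells. The averaged difference was 4.00 ± 0.92 on the log2 scale (limma adjusted p = 0.0392), and the exact two-sided permutation within fractions gave 0.005, its smallest possible value. Neither fraction passed on its own: 5.46 ± 1.30 in IL27RA- (limma adjusted p = 0.0831) and 2.55 ± 1.30 in IL27RA+ cells (limma adjusted p = 0.618), both without overlap (7.80% and 9.09% of all genes in the higher direction). That the age difference differed between the fractions was not shown (-2.91 ± 1.84, limma adjusted p = 0.942). By sort the averaged difference was 1.99 ± 0.92 (limma adjusted p = 0.618). It was 3.44 ± 1.30 in young cells (limma adjusted p = 0.511) and 0.53 ± 1.30 in old cells, and the fractions overlapped at both ages.

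The averaged age call of Cdkn2c held in 2 of the 12 fits that left out 1 library, those without young IL27RA- replicate 1 (4.83, limma adjusted p = 0.00478) or replicate 3 (3.06, limma adjusted p = 0.0241). It was lost without young IL27RA- replicate 2, without any of the 3 young IL27RA+ libraries, and without any of the 6 old ones (difference 3.70 to 4.29, limma adjusted p 0.0561 to 0.103). The library with Igkc, old IL27RA- replicate 1, had the highest Cdkn2c of all, and without it the averaged difference was 3.72 (limma adjusted p = 0.0974) and that in IL27RA- cells 4.90 (limma adjusted p = 0.256). Other markers that moved with age were the T and NK cell list, 3 genes, with a summed level of 15.0 to 455.3 normalized counts in young IL27RA-, 208.2 to 236.4 in young IL27RA+, 1434 to 3043 in old IL27RA- and 718.9 to 1523 in old IL27RA+ libraries, most of it Klrb1c, the one member called on average, while Trac was at 0 in all 6 young and 2 of the 6 old libraries. The neutrophil and monocyte list, 8 genes, summed to 3635 to 5404 in young and 7782 to 13163 in old libraries. Nearly all of that was Prtn3, again the 1 member called on average, with Elane at 0 in 11 of 12. Of the 4 tested members of this list, 1 was above 0 by age on average (median -0.24). It was 4 of 4 in IL27RA- cells (median 0.72) and 1 of 4 in IL27RA+ cells (median -1.06). Within IL27RA+ cells, all 4 tested multipotent progenitor markers were below 0 in old minus young, with 3 under 0.05 unadjusted and Mpo, at 0 in every old library, called lower (limma adjusted p = 0.0498). In that comparison Cxcl12 was the 1 called of 3 tested stroma and endothelium markers (limma adjusted p = 0.0221), at 81.8 to 408.9 in young IL27RA+ libraries and at most 0.96 in the other 9. All 7 tested erythroid markers were below 0 there (median -1.95), with 0 called and 0 under 0.05 unadjusted. By age in IL27RA- cells 6 of these 7 were above 0 (median 0.53, 1 under 0.05, 0 called). By age on average, 0 of the 4 tested multipotent progenitor markers were above 0 (median -1.24, 3 under 0.05 unadjusted, 0 called). All 4 tested B and plasma cell markers were above 0 by age. Their median was 3.26 in IL27RA- cells, 0.87 in IL27RA+ cells and 2.23 on average, with 0 called and 0 under 0.05 unadjusted. Of 5 megakaryocyte markers 4 were above 0 by age on average (median 0.31, 2 under 0.05, 0 called). The part of these lists in the Cdkn2c and Ccnd1 results was not tested.

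Cdkn2d, the p19 INK4 gene, was near the limit of detection, with 1 to 51 reads per library. It was found by its symbol alone, since its gene identifier is not in the annotation used for lengths. Whether this bears on its low count was not tested. It stood at 40.6, 0.72 and 3.9 normalized counts in young IL27RA-, 17.9, 11.4 and 27.6 in young IL27RA+, 12.5, 27.0 and 17.6 in old IL27RA-, and 24.9, 14.4 and 11.7 in old IL27RA+ libraries. All groups overlapped, and the age and sort differences were 0.66 ± 0.94 and 0.63 ± 0.94, so no difference was detectable at these low counts. Of the other INK4 genes, Cdkn2b (p15) was at 84.7 in old IL27RA- replicate 1 and at 0 in the other 11 libraries. Cdkn2a was not matched to any of the 20457 genes, so it has no level here.

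Levels of different genes can be compared only per length, and the order then depends on which length is used. Per kb of union exon, Cdk4 had 1388 ± 61.0, 1413 ± 51.2, 1337 ± 196.2 and 1559 ± 261.7 normalized counts (SD, n = 3) in young IL27RA-, young IL27RA+, old IL27RA- and old IL27RA+ cells. It was the most abundant of 9 genes in each group by either length, except in young IL27RA- cells, where by union exon Cdkn1c stood higher at 1635 ± 757.7, within its spread. Cdkn2d has no length in the annotation used. Cdk6 was number 6 of the 9 in IL27RA- cells of both ages, and number 2 by union exon or 3 by the longest transcript in old IL27RA+ cells. Cdk6 made up 12.5 ± 3.4% of the summed Cdk4 and Cdk6 level in young IL27RA-, 28.4 ± 8.8% in young IL27RA+, 21.2 ± 5.7% in old IL27RA- and 35.5 ± 8.2% in old IL27RA+ cells. By the longest transcript the shares were 9.9, 23.3, 17.2 and 29.7%.

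Ccnd1 was the smallest of the D cyclins by share in every group. Per kb of union exon it held 13.8 ± 0.3% of the summed D cyclin level in the young IL27RA- group and 7.9 ± 3.9% in the young IL27RA+ group, against 24.2 ± 6.1% and 26.9 ± 2.5% in old IL27RA- and old IL27RA+ cells. Every old library, at 18.4% or more, was above every young one, at 14.0% or less. The Ccnd1 level itself did not split this way. Old IL27RA- replicate 3 held 1261 normalized counts, below young IL27RA- replicates 1 and 3 (1274 and 1388). Which of Ccnd2 and Ccnd3 led depended on the length: in young IL27RA+ cells Ccnd2 held 50.5% and Ccnd3 41.6% by union exon but 41.7% and 52.7% by longest transcript. Among the 4 inhibitors with a length, Cdkn1c held 86.2 ± 7.0% without and 79.0 ± 9.8% with the receptor in young cells, and 57.3 ± 29.4% and 61.2 ± 13.8% in old ones. Shares in a set are tied, since a rise of any member lowers the rest. The Cdkn1c level itself was 0.41 times as high in old as in young IL27RA- cells and 0.89 times in IL27RA+ cells. The Cdkn2c share was 1.8 ± 2.9% and 5.4 ± 3.1% in young and 28.5 ± 24.2% and 26.8 ± 12.2% in old cells. In old IL27RA- replicate 1 it reached 56.4%, the highest of the 12, and no old library was under 12.8%.

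**Figure D3:**
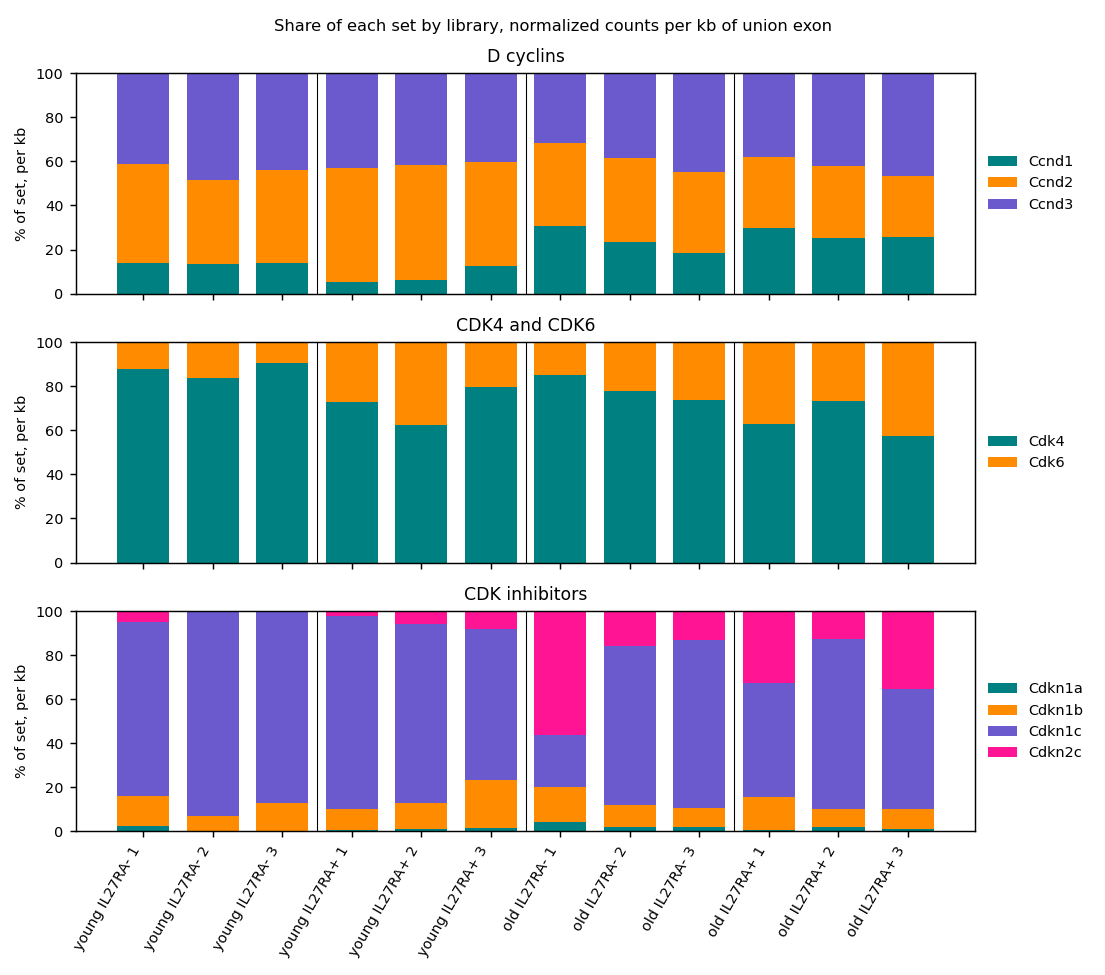
Share of each gene in the summed level of its set in every library, in percent, from normalized counts per kb of union exon; the sets are the 3 D cyclins, Cdk4 with Cdk6, and 4 inhibitors (Cdkn2d, which has no length in the annotation used, is left out). The Ccnd1 and Cdkn2c shares are larger in all 6 old libraries than in all 6 young ones, and the Cdk6 share is larger in IL27RA+ than in IL27RA- libraries of the same age.

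The other genes of the pathway were read from fixed lists. Of 10 E2F and DP factors, 1 was called in the averaged sort comparison, E2f8, an atypical E2F that represses transcription. It was higher in IL27RA+ cells by 5.67 ± 1.04 (limma adjusted p = 0.0414), with 105.3, 521.6 and 17.6 normalized counts in young IL27RA+ and 239.3, 120.7 and 414.8 in old IL27RA+ libraries, against at most 17.9 in IL27RA- libraries. E2f7, its close relative, stood at -2.41 ± 0.89 in the same comparison (limma adjusted p = 0.451). By age 0 of the 10 were called, with 3 under 0.05 unadjusted, E2f1 at -3.59 ± 1.01 (limma adjusted p = 0.0897) and E2f7 at 2.51 ± 0.89 (limma adjusted p = 0.194) among them. Of the 3 pocket proteins, the targets of CDK4 and CDK6, 0 were called or under 0.05 unadjusted in either averaged comparison. Rbl2 stood at -0.34 ± 0.21 and Rb1 at -0.53 ± 0.39 by sort, and Rbl1 at -0.42 ± 0.27 and Rb1 at 0.40 ± 0.39 by age. Among the 5 measured genes of the E and A cyclins with CDK2, which act after the D cyclins, 0 were called by sort, where Ccna2 (2.76 ± 0.75, limma adjusted p = 0.225) and Ccne2 (1.85 ± 0.56, limma adjusted p = 0.323) were the 2 under 0.05 unadjusted. By age 0 of them were called or under 0.05, with Cdc25a at -0.66 ± 0.34 and Cdk2 at -0.31 ± 0.20.

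The genes that activate CDKs, degrade cyclins and inhibitors, or act upstream gave 0 calls in both averaged comparisons. Of the 3 genes of the CDK-activating kinase, 0 were under 0.05 unadjusted. Ccnh (0.23 ± 0.33) and Mnat1 (-0.12 ± 0.29) had the smallest p by sort, and Mnat1 (0.53 ± 0.29) and Cdk7 (-0.17 ± 0.27) by age. Of 9 turnover genes, which serve the ubiquitin ligases for cyclins and inhibitors, 0 were under 0.05 by sort, with Cks1b at 1.17 ± 0.56 and Rbx1 at 0.39 ± 0.25. By age 1 was, Skp1a at 0.28 ± 0.12 (limma adjusted p = 0.272), and Fbxo31 stood at -0.95 ± 0.64. Of 6 upstream genes, Foxo1 alone was under 0.05 by sort (-0.82 ± 0.38, limma adjusted p = 0.618), with Mycn at -0.36 ± 0.18, and 0 were under 0.05 by age, with Mdm2 at -0.40 ± 0.33 and Myc at 0.22 ± 0.28.

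Other transcripts had a pattern like that of Cdk6. The 5 genes whose log2 values were most like those of Cdk6 over the 12 libraries were Hmgb1 (Pearson r = 0.904), Mpeg1 (0.901), Dnajc6 (0.899), Ssr1 (0.887) and Cbx3 (0.878). The 12 libraries fall into 2 sorted fractions and differ in depth, both of which enter these values, and they are a description. Of 22 replication and division genes, all 22 had differences above 0 (IL27RA+ minus IL27RA-) when averaged over age, with 0 called, 12 under 0.05 unadjusted (7.98% of all genes) and a median difference of 1.56. That median was 0.72 in young and 2.26 in old cells. Bub1 (5.83 ± 1.19, limma adjusted p = 0.079) and Aurkb (6.85 ± 1.44, limma adjusted p = 0.0873) had the smallest p. By age 6 of the 22 were above 0 in IL27RA- cells (median -1.19, 11 under 0.05 unadjusted) and 21 in IL27RA+ cells (median 0.78, 0 under 0.05). The change of the sort difference with age was above 0 for 21 of them, with 10 under 0.05 unadjusted, 0 called and a median of 1.94. With the fractions averaged 9 were above 0 by age, and Mcm7 (-0.56 ± 0.18, limma adjusted p = 0.142) and Mcm3 (-0.58 ± 0.27, limma adjusted p = 0.331) had the smallest p. Their mean log2 value was 8.94, 6.66 and 6.28 in young IL27RA- libraries, 9.04, 9.12 and 6.92 in young IL27RA+, 5.82, 6.47 and 6.20 in old IL27RA- and 9.81, 9.13 and 9.52 in old IL27RA+. The 3 libraries of a group stood in the same order in Cdk6 as in these mean log2 values in young IL27RA+, old IL27RA- and old IL27RA+ cells. By summed normalized count the order matched in old IL27RA+ cells only. The sums were 23079, 21354 and 10661 in young IL27RA+ and 6205, 9894 and 10197 in old IL27RA- libraries. For how many of all genes the orders match was not counted. In young IL27RA- cells the orders differed by either measure, and replicate 1, high in mean log2 value, held 2731 of Cdk6. Without that library the averaged sort difference of Cdk6 was 1.38 (limma adjusted p = 0.0287).

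Macrophage markers also moved with the sort. Of 11, all 11 had averaged differences above 0 and 4 were called, where 0.189% of all genes were. Their summed level was 744.3 to 1125 normalized counts in young IL27RA- and 642.9 to 1262 in old IL27RA- libraries, against 4490 to 8702 in young IL27RA+ and 1846 to 8720 in old IL27RA+. Vcam1 reached 1.3 at most in IL27RA- libraries and 28.7 to 915.5 in IL27RA+, while Adgre1 was at 0 in all 6 IL27RA- libraries and in replicate 2 of both IL27RA+ groups. Those replicates, with the lowest macrophage sums of their groups, held 11782 of Cdk6, the highest of young IL27RA+, and 8830, the lowest of old IL27RA+. Other lists lay to one side in the same comparison with 0 called: 7 of 7 erythroid markers (median 2.15, 1 under 0.05 unadjusted) and 5 of 5 megakaryocyte markers (median 1.59, 2 under 0.05) were above 0, and 10 of 11 stem cell markers were below 0 (median -0.27, 4 under 0.05). The summed erythroid level was 297.7 to 547.7 normalized counts in young IL27RA-, 640.8 to 5176 in young IL27RA+, 170.4 to 429.7 in old IL27RA- and 223.2 to 929.6 in old IL27RA+ libraries. The summed megakaryocyte level was 490.9 to 1479, 1216 to 2296, 1158 to 1983 and 1716 to 6471 in the same order. By sort on average, 3 of 4 tested neutrophil and monocyte markers were above 0 (median 3.18, 3 under 0.05 unadjusted, 0 called). So were 2 of 3 tested stroma and endothelium markers (median 2.74, 2 under 0.05, 0 called). Of 4 tested B and plasma cell markers 0 were above 0 (median -0.84, 0 under 0.05). The part of these lists and of the replication genes in the Cdk6 difference was not tested.

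**Figure D4:**
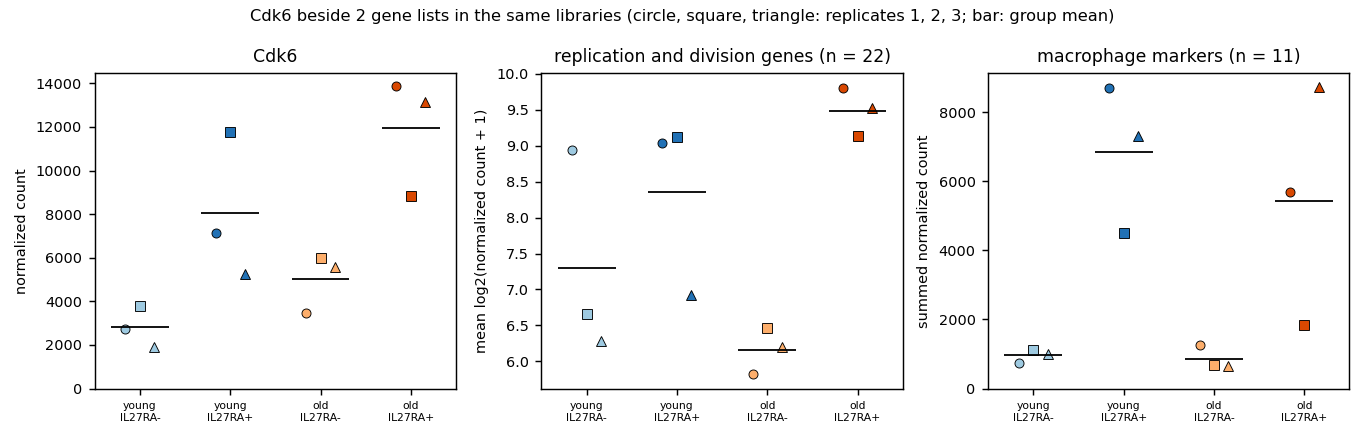
Cdk6 (normalized count), the mean log2(normalized count + 1) of 22 replication and division genes, and the summed normalized count of 11 macrophage markers in every library, by group; circles, squares and triangles are replicates 1, 2 and 3 and the bar is the group mean. In these measures all are higher in IL27RA+ than in IL27RA- groups on average. Young IL27RA- replicate 1 is high in the mean log2 of replication genes (8.94) with Cdk6 at 2731. As summed normalized counts, not plotted, the replication genes overlap in young cells, at 15696 to 21279 in IL27RA- and 10661 to 23079 in IL27RA+ libraries.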

How the data were processed

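Libraries of 50 sorted stem cells were made with Smart-Seq2, per the labels' protocols. FastQC 0.11.5, TopHat2 2.1.1, HTSeq and DESeq2 are listed, without their roles, per the submitters' processing notes; no genome build is stated. The deposited table holds log2 values that are, from the values themselves, log2 of 1 plus the reads over a library's size factor. Whole reads came back for 100.0% of values within 0.001. Of 20473 lines, 1 damaged and 15 repeated ones were left out.

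Genes with at least 3 of 12 libraries at 10 or more on the linear scale (14803) were fitted with limma 3.58.1 (variance trend, 1 mean per group, all 12 libraries), with Benjamini-Hochberg adjustment and a threshold of 0.05. Single genes were also tested by exact two-sided permutation, unadjusted; 3 libraries against 3 cannot go below 0.1. Alternatives covered scaling, pseudocount, filter, voom, library weights, a replicate block and leaving out libraries. Lengths come from GENCODE M21, by gene identifier (19007 genes, 92.9%, matched), and promoters from RefSeq. All 10 genes were named, with each listed gene called and the 2 of smallest p per list and averaged comparison. The 10 genes and the lists were chosen with earlier results of these data known. Amplified reads are not independent molecules, so floors cover counting error only.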

Additional observations from a re-analysis of the deposited data

How the results depend on the processing

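For old against young IL27RA- cells the number called among the 10 genes went from 0 to 1 with a pseudocount of 10 (Cdkn2c, 4.16, limma adjusted p = 0.0405). In IL27RA+ cells it went from 1 to 0 with no filter, with voom on the recovered reads, with only the groups compared in the fit and with the replicate block (Ccnd1, limma adjusted p = 0.0566, 0.0836, 0.12 and 0.059). For the averaged sort comparison it went from 1 to 0 with no filter (Cdk6, limma adjusted p = 0.0524). For the averaged age comparison it went from 2 to 1 with no filter (Cdkn2c lost, 0.0607), to 4 with library weights (Ccnd2 and Cdk6 added, 0.0457 and 0.0481), and to 1 without young IL27RA- replicate 2 and old IL27RA- replicate 1 together (Ccnd1 1.06, 0.105, and Cdkn2c 3.84, 0.116, lost, Ccnd2 -0.63, 0.0425, added). Leaving out each library in turn gave 0 to 1 in the 2 age comparisons of a single fraction and in the averaged sort comparison, and 0 to 2 in the averaged age comparison. The counts of the other 3 comparisons stayed at 0 under every alternative run.

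Signs turned only in differences that were not called. They were Cdkn1c by sort (-0.01, against 0.01 with upper quartile scaling, 0.03 with total reads and 0.08 with voom), Cdkn2d by sort (-0.002 without the 2 libraries named above), Cdk4 by age (0.03, against -0.04 with total reads and -0.03 with voom) and the interaction of Ccnd2 (-0.22, against 0.05 without the 2 libraries). On leaving out 1 library they ranged as follows: in the young sort comparison Ccnd2 -0.25 to 0.01, Cdk4 -0.01 to 0.05 and Cdkn1b -0.49 to 0.18; in the old sort comparison Ccnd1 -0.10 to 0.44, Cdkn1b -0.05 to 0.59, Cdkn2c -0.05 to 1.09 and Cdkn2d -0.45 to 0.12; by age in IL27RA- cells Cdk4 -0.15 to 0.06; by age in IL27RA+ cells Cdkn1a -0.29 to 0.64, Cdkn1b -0.51 to 0.05 and Cdkn2d -0.43 to 0.17; by sort on average Cdkn1a -0.02 to 1.03, Cdkn1b -0.14 to 0.26 and Cdkn1c -0.34 to 0.34; by age on average Cdk4 -0.01 to 0.11; and the interaction of Cdk6 -0.49 to 0.09. The cause of these changes was not tested.

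Libraries with the same replicate number correlated at -0.054 to 0.106 in their deviations from the group means, and others at -0.068 to 0.071. Between the fractions of the same age, same-number values were 0.106, 0.028 and 0.017 in young and 0.031, 0.004 and 0.096 in old cells. Other numbers gave -0.068 to 0.038 there. Whether the numbers pair the fractions is therefore not settled. The replicate block took the genes called over the whole table from 63 to 43 in IL27RA+ cells by age, and among the 10 genes ended only the Ccnd1 call there. Over all genes, counts on leaving out 1 library ran from 34 to 279 (99 with all libraries) by age in IL27RA- cells, 4 to 96 (63) in IL27RA+ cells, 6 to 96 (28) by sort and 140 to 432 (274) by age on average, and voom gave 3 by age in IL27RA+ cells. Scaling to total reads moved the share of higher among called genes by age from 74.5% to 63.1%. Reads were few for Cdkn1a (6 to 141 per library), for Cdkn2d (1 to 51) and for Cdkn2c in young libraries (0 to 190). The library with 0 reads of Cdkn2c, young IL27RA- replicate 3, was the deepest (24.2 M). The part of depth in these low counts was not tested.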
